A study of Mus musculus with 11 samples.

Results

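The 42 genes described here are the mouse orthologs of human genes whose variants cause Charcot-Marie-Tooth disease and related motor neuropathies, out of 55487 gene identifiers in the deposited expression table. They were listed by gene name, and Morc2a, the gene altered in these mice, was left out of the list. By the form of disease that each gene causes in people, 12 were placed with the Schwann cell (demyelinating) forms, 22 with the axonal and distal motor forms, and 8 with intermediate forms or both. All 42 were found in the table by symbol.

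RNA was sequenced from 2 sources in C57BL/6 mice: spinal cord, and fetal fibroblasts (MEF), which are cultured from fetal tissue. Mice heterozygous for Morc2a p.S87L, a missense allele (S87L below), gave 3 spinal cord and 2 MEF libraries, and wild-type mice gave 3 spinal cord and 3 MEF libraries. Age, sex and treatment are not given in the labels. Nothing in the labels ties a library to its own animal or culture, so the p-values speak only for how far these libraries scatter, and that scatter may be technical.

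Peripheral nerves depend on a partnership between long axons and the Schwann cells that wrap them in myelin. Demyelinating neuropathies mostly arise from genes of the Schwann cell: myelin membrane proteins, the factors that switch them on, and the phosphoinositide and endosome machinery that moves membrane. Axonal and motor forms arise from neurofilament genes and from genes that every cell uses but on which long axons lean hardest, such as motors, mitochondrial fusion proteins, tRNA synthetases and chaperones. Spinal cord holds the cell bodies of motor neurons and oligodendrocyte myelin, while peripheral myelin is made by Schwann cells, which begin in the nerve roots.

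Values are FPKM (fragments per kilobase of gene, scaled to the library's read total), so they can be compared between genes. Genes were tested with limma on log2(FPKM + 0.5) where the mean was at least 0.5 FPKM. Called genes are those with an adjusted p under 0.05 by Benjamini-Hochberg, with the adjustment made over every gene in the fit. Fold changes are S87L over wild-type on that scale, and all adjusted p-values below come from these limma fits. Whole reads recovered from the FPKM steps came to 19.4 to 23.5 M in S87L and 15.3 to 19.0 M in wild-type spinal cord libraries, and 12.1 to 14.5 M in S87L and 14.3 to 15.1 M in wild-type MEF libraries. The read count used for scaling was nearer to the reads of protein-coding genes. In wild-type spinal cord replicate 1 it was 18.11 M, against 18.05 M protein-coding and 18.96 M recovered reads. Morc2a itself had 4.71, 4.93 and 4.95 FPKM in S87L spinal cord and 5.62, 5.66 and 5.71 FPKM in wild-type spinal cord, a log2 fold change of -0.20 that a gene total cannot split by allele.

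The labelled tissues were checked with marker lists. Oligodendrocyte markers summed to 3979 to 4129 FPKM in S87L and 4143 to 4187 FPKM in wild-type spinal cord, and motor neuron markers to 115 to 124 FPKM in S87L and 114 to 116 FPKM in wild-type spinal cord. Fibroblast markers summed to 4166 to 4394 FPKM in S87L and 4599 to 4628 FPKM in wild-type MEF, where the neuronal markers Rbfox3 and Snap25 and the motor neuron markers Chat, Mnx1 and Slc18a3 stayed under 0.1 FPKM in all 5 libraries. Other listed markers were present in MEF. The 10 neuronal markers summed to 58.1 to 62.3 FPKM in S87L and 54.1 to 57.6 FPKM in wild-type MEF, most of it from Tubb3 and Gap43. Microglia markers summed to 127 to 131.5 FPKM in S87L and 152 to 154 FPKM in wild-type MEF. Markers of other tissues also differed between the spinal cord groups. Of 15 skeletal muscle markers, 14 were called higher in S87L spinal cord, with sums of 223 to 230.4 FPKM in S87L and 146 to 159 FPKM in wild-type. Most of both sums was Pvalb, the marker not called, which averaged 132.5 FPKM in S87L and 131 FPKM in wild-type spinal cord. The sums therefore understate the change of the other markers, and the median log2 fold change of the 15 was 1.67. Of 9 tested markers of meninges and fibroblasts, 7 were called higher, with sums of 58.5 to 59.7 FPKM in S87L and 33.2 to 34.8 FPKM in wild-type spinal cord. Red blood cell markers summed to 409 to 448 FPKM in S87L and 336 to 371 FPKM in wild-type spinal cord, and 3 of 5 were called higher. The part of these differences in the results below was not tested.

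In S87L spinal cord, 7 of the 41 neuropathy genes tested (17.1%) passed the test, where 12.9% of all genes did. Higher were 6 of them: Pmp22, Prx, Mtmr2, Dnm2, Bag3 and Sord, against 5.17% of all genes called higher. Lower was 1, Dync1h1, against 7.71% of all genes called lower. In S87L MEF, 5 of the 38 tested (13.2%) were called, against 11.2% of all genes: Litaf and Inf2 higher, where 4.91% of all genes were, and Pmp22, Prx and Bscl2 lower, where 6.32% were. Both shares of members were near the background. The S87L and wild-type libraries did not overlap at 19 of the 41 members in spinal cord and 20 of the 38 in MEF, where 35.1% and 45.8% of all genes did not. None of the members tested reached a 1.5-fold change in either tissue. The 2 genes called in both tissues, Pmp22 and Prx, both of the Schwann cell forms, were higher in S87L spinal cord and lower in S87L MEF.

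**Figure D1:**
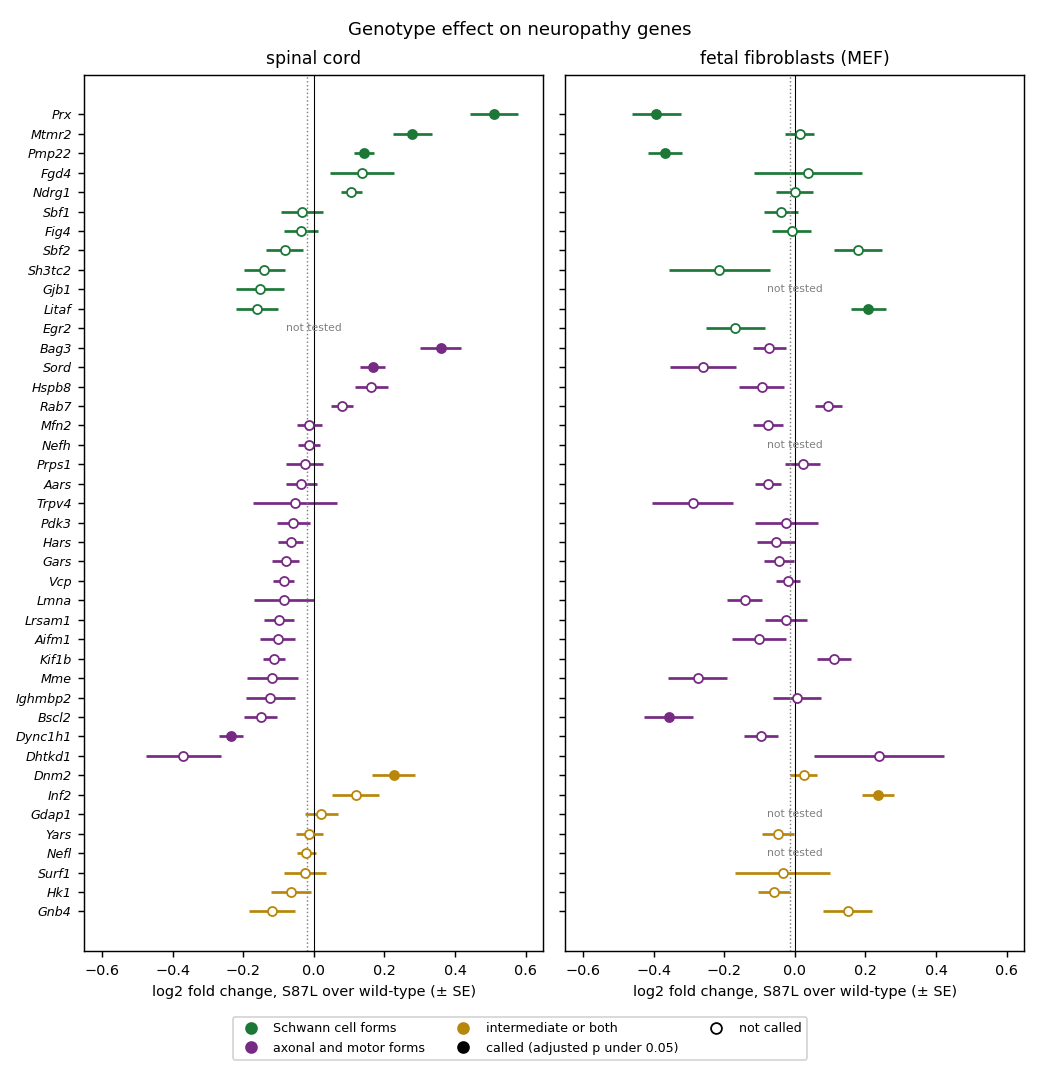
Log2 fold change of each neuropathy gene, S87L over wild-type on the log2(FPKM + 0.5) scale with its SE as the bar, in spinal cord (left) and MEF (right), grouped by form of disease and ordered by the spinal cord value. Filled points passed an adjusted p of 0.05 (7 in spinal cord and 5 in MEF), and the dotted line is the median of all genes tested (-0.02 and -0.01).

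Among the myelin genes, Pmp22 (chromosome 11, 63128982 to 63159547; GRCm38 here and below) encodes a compact myelin protein of Schwann cells whose dose is critical in people, since its duplication and its deletion each cause neuropathy. It was abundant in both sources, with 10828 recovered reads over the S87L and 7636 over the wild-type spinal cord libraries. Pmp22 had 76.3, 74.5 and 75.4 FPKM in S87L spinal cord, against 67.9, 69.2 and 67.6 FPKM in wild-type spinal cord. All 3 S87L libraries stood above all 3 wild-type libraries, by a small step (log2 fold change 0.14, SE 0.03, adjusted p = 0.0223). In MEF it had 54.2 and 52.1 FPKM in S87L, against 72.0, 67.5 and 66.6 FPKM in wild-type libraries. Both S87L libraries stood below every wild-type library, at 0.775-fold (log2 fold change -0.37, SE 0.05, adjusted p = 0.00715). The spinal cord call was lost with wild-type replicate 3 or any 1 S87L replicate left out (adjusted p up to 0.0826) and with quantile normalization (0.107), while the MEF call held with each of the 5 libraries left out.

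Prx (chromosome 7, 27499324 to 27520214) encodes periaxin, a scaffold of the Schwann cell membrane outside the compact myelin, and it was a low-level transcript in both sources. It had 3.04, 3.12 and 2.95 FPKM in S87L spinal cord, against 2.19, 1.91 and 1.87 FPKM in wild-type spinal cord. The groups were well apart, at 1.42-fold, the largest fold change among the members tested there (log2 fold change 0.51, SE 0.07, adjusted p = 0.00467), and the call held with each of the 6 libraries left out. In MEF it had 2.71 and 2.97 FPKM in S87L, against 3.76, 4.04 and 3.85 FPKM in wild-type. Again both S87L libraries were the lowest (log2 fold change -0.39, SE 0.07, adjusted p = 0.0193), but with S87L replicate 1 or any wild-type replicate left out the adjusted p was up to 0.0766, and with no filter on low values it was 0.0501. Of its exonic bases, 5.4% lie opposite another annotated gene, and whether reads were counted by strand is not known from the sources used.

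Gjb1, the connexin of myelinating glia, which oligodendrocytes also make, was not called in spinal cord. It had 58.8, 55.6 and 54.9 FPKM in S87L spinal cord, against 68.0, 56.5 and 64.4 FPKM in wild-type spinal cord, and the groups overlapped (log2 fold change -0.15, adjusted p = 0.184). In MEF it was listed at 0 in 4 of 5 libraries.

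Some other genes of the nerve and its coverings also differed. Of 12 Schwann cell markers 8 were tested in spinal cord, and 1 was called higher and 0 lower in S87L. Over all genes there, 5.17% were called higher and 7.71% lower. Of the 8, 4 had a positive and 4 a negative value, with a median log2 fold change of 0.03. The summed level of the 12 was 78.1 to 84.3 FPKM in S87L and 69.0 to 74.7 FPKM in wild-type spinal cord. Its largest part was Sox10, also an oligodendrocyte marker, which was not higher. It averaged 37.3 FPKM in S87L and 39.5 FPKM in wild-type spinal cord. Pmp2, a peripheral myelin gene, was under 0.1 FPKM in all libraries. Dcn, decorin of connective tissue, had 11.1, 11.6 and 12 FPKM in S87L spinal cord, against 4.90, 4.65 and 4.47 FPKM in wild-type. In a bulk sample, a change in the number of cells of a type cannot be told apart from a change in RNA per cell. The part of nerve root or meningeal tissue in the Pmp22 and Prx values was not tested. In MEF the fibroblast genes Dcn, Lum and Col3a1 were lower in S87L, 3 of the 9 tested fibroblast markers, with none higher. Dcn had 9.55 and 8.62 FPKM in S87L MEF, against 17.5, 18.0 and 17.2 FPKM in wild-type MEF. Of 5 Schwann cell markers tested in MEF, 1, Ngfr, was called lower and none higher. Scn7a had a positive value (log2 fold change 0.26) and was not called. Over all genes in MEF, 6.32% were called lower and 4.91% higher.

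**Figure D2:**
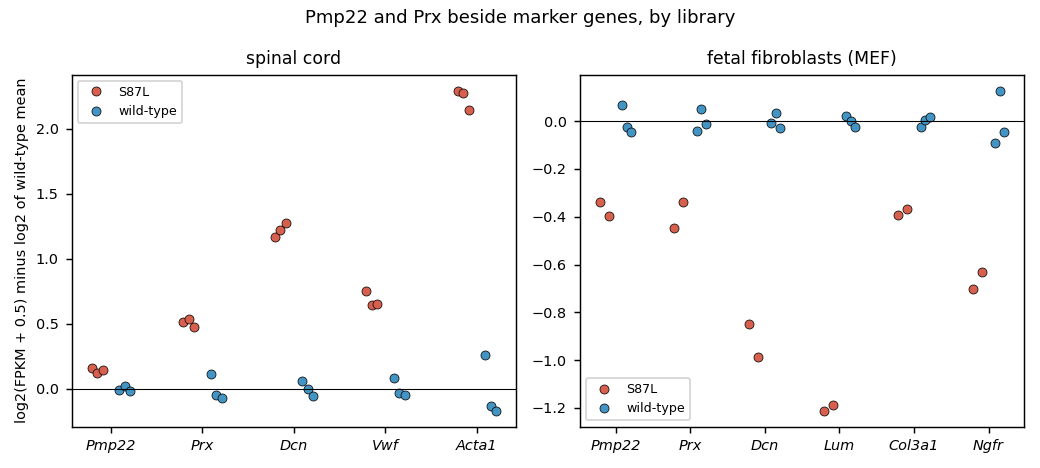
Each library's log2(FPKM + 0.5) minus the log2 of the wild-type mean of its tissue plus 0.5, for Pmp22, Prx and Dcn of connective tissue in both panels, with Vwf of endothelium and Acta1 of muscle in the spinal cord panel alone and Lum and Col3a1 of connective tissue and Ngfr of Schwann cells in the MEF panel alone; each point is 1 library. For the genes drawn in each panel, the S87L points lie above 0 in spinal cord and below it in MEF, with Pmp22 at 0.14 and -0.37 and Prx at 0.51 and -0.39 on average. Some genes not drawn went the other way. Of 7 endothelium markers in spinal cord, 1 (Vwf) was called higher and 1 (Kdr, -0.66) lower. Acta1 was called higher in S87L MEF (0.55). Of 5 Schwann cell markers tested in MEF, Ngfr alone was called.

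Pmp22 can start at several positions, and a gene total adds them up. The windows below, from RefSeq on GRCm38.p6, run from 250 bases before to 50 bases after an annotated start. They are shown because Pmp22 and Prx are the 2 members called in both tissues, and they let the start regions behind the totals be compared. CG dinucleotides, the sites of DNA methylation, are in capitals. The first Pmp22 window is chr11:63128732-63129031, plus strand, the second chr11:63131207-63131506, plus strand, and the Prx window chr7:27499074-27499373, plus strand.
Pmp22 first start: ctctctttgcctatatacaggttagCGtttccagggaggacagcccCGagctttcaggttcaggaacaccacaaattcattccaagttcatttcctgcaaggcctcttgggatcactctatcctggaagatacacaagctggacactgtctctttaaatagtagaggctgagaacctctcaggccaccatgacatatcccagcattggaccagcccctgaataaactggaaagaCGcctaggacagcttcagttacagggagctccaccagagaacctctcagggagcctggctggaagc
Pmp22 second start: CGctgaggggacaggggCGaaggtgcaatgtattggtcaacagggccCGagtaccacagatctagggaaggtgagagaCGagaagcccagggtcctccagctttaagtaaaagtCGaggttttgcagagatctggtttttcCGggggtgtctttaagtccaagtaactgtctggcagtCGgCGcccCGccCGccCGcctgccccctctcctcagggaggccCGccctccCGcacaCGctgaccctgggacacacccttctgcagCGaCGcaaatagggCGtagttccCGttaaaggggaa
Prx start: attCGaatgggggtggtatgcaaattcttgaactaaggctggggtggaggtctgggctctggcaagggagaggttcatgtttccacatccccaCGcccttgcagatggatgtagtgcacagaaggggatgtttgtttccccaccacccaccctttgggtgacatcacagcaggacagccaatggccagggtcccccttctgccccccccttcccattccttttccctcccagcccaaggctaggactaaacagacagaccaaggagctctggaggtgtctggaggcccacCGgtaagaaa
The first Pmp22 window and the Prx window hold 3 CG each, against 18 in the second Pmp22 window and 20 and 30 in 2 further Pmp22 windows, where the median over 32851 promoters was 7. Which start was used in which tissue cannot be told from gene totals.

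The regulators were Egr2, the transcription factor that switches on peripheral myelin genes and an early response gene in many cells, and Ndrg1, a cytosolic protein of myelinating Schwann cells. Egr2 was too low to test in spinal cord, with 0.254, 0.298 and 0.410 FPKM in S87L and 0.260, 0.279 and 0.161 FPKM in wild-type libraries. In MEF it averaged 2.26 ± 0.0956 FPKM in S87L (SD, n = 2) and 2.61 ± 0.194 FPKM in wild-type (SD, n = 3), and the genotype difference was not called (adjusted p = 0.245). Ndrg1 averaged 74.5 ± 1.5 FPKM in S87L and 69.1 ± 0.706 FPKM in wild-type spinal cord (SD, n = 3 each). All 3 S87L libraries were above the wild-type ones, but the difference fell short of the threshold (log2 fold change 0.11, adjusted p = 0.0632), and it averaged 6.05 FPKM in S87L and 6.06 FPKM in wild-type MEF.

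Of the 9 genes of endosomes and phosphoinositides, 2 were called higher in S87L spinal cord and 1 in S87L MEF, and none lower in either. Over all genes, 5.17% were called higher and 7.71% lower in spinal cord, and 4.91% higher and 6.32% lower in MEF. Mtmr2 (chromosome 9, 13748410 to 13806481) is a phosphatase that removes phosphate from endosomal phosphoinositides, and its loss causes folded myelin. It had 27.5, 27.7 and 28.1 FPKM in S87L spinal cord, against 21, 23.2 and 24.3 FPKM in wild-type spinal cord. All S87L libraries were higher, by 1.21-fold (log2 fold change 0.28, SE 0.06, adjusted p = 0.0196), though the wild-type libraries spread more than the S87L ones. In MEF it averaged 18.4 ± 0.392 FPKM in S87L (SD, n = 2) and 18.2 ± 0.271 FPKM in wild-type (SD, n = 3), and the groups overlapped. Its catalytically inactive partners were not called in either tissue: the log2 fold changes in spinal cord and MEF were -0.03 and -0.04 for Sbf1 (MTMR5) and -0.08 and 0.18 for Sbf2 (MTMR13). The Mtmr2 call was lost with wild-type replicate 2 or any 1 S87L replicate left out (adjusted p up to 0.0700).

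Litaf (chromosome 16, 10959275 to 11066157) encodes a small membrane protein of late endosomes. In MEF it had 25.3 and 23.9 FPKM in S87L, against 21.5, 21.8 and 20.4 FPKM in wild-type. Both S87L libraries were above all wild-type ones, by 1.15-fold (log2 fold change 0.21, SE 0.05, adjusted p = 0.0466), but the call was lost with S87L replicate 1 or any wild-type replicate left out (adjusted p up to 0.137), with no filter on low values (0.104) and with quantile normalization (0.0549). In spinal cord it had 13.5, 12.9 and 12.6 FPKM in S87L, against 14.9, 13.4 and 15.5 FPKM in wild-type, where the groups overlapped (log2 fold change -0.16, adjusted p = 0.117). Dnm2 (chromosome 9, 21424908 to 21507759), the dynamin that pinches off endocytic vesicles, had 19.4, 18.7 and 17.6 FPKM in S87L spinal cord, against 17.0, 15.4 and 15.1 FPKM in wild-type spinal cord. The lowest S87L library was just above the highest wild-type one (log2 fold change 0.23, SE 0.06, adjusted p = 0.0488). The call was lost in 5 of 6 fits with 1 library left out (adjusted p up to 0.149), holding only without wild-type replicate 1. It was also lost with no filter on low values (0.102). In MEF Dnm2 averaged 29.3 FPKM in S87L and 28.8 FPKM in wild-type.

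The remaining 4 endosomal genes were not called in either tissue. Rab7, the GTPase of late endosomes, was the most abundant of the 9, at 127 ± 1.31 FPKM in S87L and 120.5 ± 3.29 FPKM in wild-type spinal cord (SD, n = 3 each), and its groups did not overlap there (adjusted p = 0.141). Fig4, a phosphoinositide phosphatase of the PIKfyve complex, averaged 12.8 FPKM in S87L and 13.1 FPKM in wild-type spinal cord. Sh3tc2, the Schwann cell adaptor of recycling endosomes, and Fgd4, an exchange factor for CDC42, were under 3 FPKM in every spinal cord library and under 1 FPKM in every MEF library.

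In spinal cord, the cytoskeleton and transport group holds the transcripts with the highest levels on the list, which was not so in MEF. Nefl, the light neurofilament chain, averaged 659.7 ± 15.1 FPKM in S87L and 669.7 ± 1.83 FPKM in wild-type spinal cord (SD, n = 3 each), and Nefh, the heavy chain, 305 ± 9.27 FPKM in S87L and 308 ± 3.54 FPKM in wild-type. The groups overlapped for both (log2 fold changes -0.02 and -0.01, adjusted p = 0.643 and 0.825). The middle chain Nefm, which is not on the list and lies partly opposite Nefl, was called lower (log2 fold change -0.13, adjusted p = 0.0338). Its transcript overlaps 32.8% of the exonic bases of Nefl on the other strand. In MEF both listed chains were under 0.6 FPKM in every library and were not tested.

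Dync1h1 (chromosome 12, 110601452 to 110666945), the heavy chain of cytoplasmic dynein, the motor that carries cargo from the axon back to the cell body, was the 1 member called lower in spinal cord. It had 53.5, 51.4 and 52.4 FPKM in S87L spinal cord, against 63.4, 61.8 and 60.1 FPKM in wild-type spinal cord. The groups were well apart, at 0.850-fold (log2 fold change -0.24, SE 0.03, adjusted p = 0.00686), and the call held with each of the 6 libraries left out. In MEF it had 81.4 and 74.95 FPKM in S87L, against 81.5, 83.6 and 85.4 FPKM in wild-type, with every S87L value below every wild-type one and no call (adjusted p = 0.258). Kif1b (chromosome 4, 149176319 to 149307693), a kinesin that moves the other way, toward the axon end, differed by a smaller step that missed the threshold in spinal cord. It had 91.3, 91.6 and 95.5 FPKM in S87L, against 99.0, 102 and 100.1 FPKM in wild-type spinal cord, with no overlap (log2 fold change -0.11, SE 0.03, adjusted p = 0.0615). In MEF it had 16.5 and 15.7 FPKM in S87L, against 14.4, 15.2 and 14.9 FPKM in wild-type, with the S87L libraries higher (log2 fold change 0.11, adjusted p = 0.191).

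Inf2 (chromosome 12, 112588784 to 112615557), a formin that assembles actin filaments, had 34.7 and 35.8 FPKM in S87L MEF, against 29.0, 29.5 and 31.0 FPKM in wild-type MEF. Both S87L libraries were higher, by 1.18-fold (log2 fold change 0.24, SE 0.05, adjusted p = 0.0244), and the adjusted p was 0.0503 to 0.101 with any 1 library left out and 0.061 with no filter on low values. In spinal cord it had 23.7, 23.9 and 21.9 FPKM in S87L, against 23.4, 20.4 and 20.1 FPKM in wild-type, and 1 wild-type library overlapped the S87L range (adjusted p = 0.284).

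Of 7 mitochondrial genes tested in spinal cord and 6 in MEF, limma called none, where 12.9% and 11.2% of all genes were called. At an unadjusted limma p under 0.05 were 1 and 0 of them, against 4546 of 15648 and 3849 of 13773 genes. Mfn2, which fuses outer mitochondrial membranes and is a leading cause of axonal neuropathy in people, averaged 40.4 ± 0.996 FPKM in S87L and 40.7 ± 0.675 FPKM in wild-type spinal cord (SD, n = 3 each), and 22.9 ± 0.957 FPKM in S87L (SD, n = 2) and 24.2 ± 0.0632 FPKM in wild-type MEF (SD, n = 3). Gdap1, an outer membrane protein tied to mitochondrial fission, averaged 20.8 FPKM in S87L and 20.5 FPKM in wild-type spinal cord and was under 0.1 FPKM in every MEF library. Dhtkd1, a mitochondrial dehydrogenase of lysine breakdown, had 0.674, 0.723 and 0.660 FPKM in S87L spinal cord, against 0.968, 1.23 and 0.917 FPKM in wild-type spinal cord. This was the most negative value of any member in spinal cord, with no overlap, but at about 1 FPKM it was not called (log2 fold change -0.37, SE 0.11, adjusted p = 0.0626). Aifm1, a mitochondrial flavoprotein, Hk1, the hexokinase docked on mitochondria, Surf1, an assembly factor of cytochrome c oxidase, and Pdk3, a kinase that restrains pyruvate dehydrogenase, lay between -0.10 and -0.02 on the log2 scale in both tissues.

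The tRNA synthetases Gars, Yars, Aars and Hars charge glycine, tyrosine, alanine and histidine onto their tRNAs. None of the 4 was called in either tissue, where 12.9% of all genes were called in spinal cord and 11.2% in MEF. At an unadjusted limma p under 0.05 were 0 of 4 in each, against 4546 of 15648 genes in spinal cord and 3849 of 13773 in MEF. Gars averaged 47.7 ± 1.11 FPKM in S87L and 50.5 ± 1.64 FPKM in wild-type spinal cord (SD, n = 3 each), and 152 ± 6.70 FPKM in S87L (SD, n = 2) and 156 ± 2.91 FPKM in wild-type MEF (SD, n = 3). Aars averaged 24.0 FPKM in S87L and 24.6 FPKM in wild-type spinal cord, and 68.6 FPKM in S87L and 72.3 FPKM in wild-type MEF. Of its exonic bases 14.3% are shared with other genes on the same strand. Hars averaged 46.6 FPKM in S87L and 48.8 FPKM in wild-type spinal cord, and Yars 18.0 FPKM in S87L and 18.1 FPKM in wild-type. All 4 log2 fold changes were negative in both tissues, from -0.08 to -0.01 in spinal cord and from -0.08 to -0.05 in MEF. Of 16 other cytosolic synthetases, 3 were called lower and none higher in S87L spinal cord, where 7.71% of all genes were lower and 5.17% higher. The 3 were Cars (log2 fold change -0.26), Lars (-0.24) and Iars (-0.19). In MEF none of the 16 was called, where 11.2% of all genes were, and 1 had an unadjusted p under 0.05.

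In many mammalian cells the synthetase genes are raised together by ATF4 in the amino acid response. Their start windows are shown because 3 of the 4 could be compared and hold the letters of its element: the core TGATGNAA on either strand, in capitals, was in 4.0% of all promoters and in those of Gars, Yars, Aars and the nucleotide synthesis gene Prps1 among 35 matched members. The windows are chr6:55037751-55038050 for Gars, chr4:129189653-129189952 for Yars and chr8:111033592-111033891 for Aars, all plus strand.
Gars: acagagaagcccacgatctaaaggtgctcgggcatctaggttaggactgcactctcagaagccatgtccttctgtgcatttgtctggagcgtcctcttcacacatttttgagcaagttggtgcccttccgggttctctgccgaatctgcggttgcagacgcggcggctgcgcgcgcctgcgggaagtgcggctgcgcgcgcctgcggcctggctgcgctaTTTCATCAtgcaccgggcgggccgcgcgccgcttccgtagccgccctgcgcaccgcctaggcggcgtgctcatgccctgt
Yars: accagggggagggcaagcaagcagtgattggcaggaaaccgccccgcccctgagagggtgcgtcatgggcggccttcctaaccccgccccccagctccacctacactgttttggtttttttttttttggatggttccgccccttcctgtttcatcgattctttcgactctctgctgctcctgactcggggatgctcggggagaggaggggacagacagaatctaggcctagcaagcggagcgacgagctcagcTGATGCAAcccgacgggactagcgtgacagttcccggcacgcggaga
Aars: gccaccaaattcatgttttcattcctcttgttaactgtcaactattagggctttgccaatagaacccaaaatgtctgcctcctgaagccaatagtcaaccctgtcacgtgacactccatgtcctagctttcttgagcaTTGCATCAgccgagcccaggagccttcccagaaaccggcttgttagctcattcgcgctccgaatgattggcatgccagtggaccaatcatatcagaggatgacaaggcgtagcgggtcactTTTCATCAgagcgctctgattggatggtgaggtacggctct
Counted from the start, with the first transcribed base as 1, the core begins at base -30 in Gars, at 4 in Yars, and at -112 and 10 in Aars. A match is a description of these letters and not a site shown to be bound.

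Of the 5 genes of protein quality control, Bag3 was called higher in S87L spinal cord and Bscl2 lower in S87L MEF. Over all genes, 5.17% were called higher in spinal cord and 6.32% lower in MEF. Bag3 (chromosome 7, 128523616 to 128546981) is a co-chaperone that hands damaged proteins to autophagy and is abundant in muscle. It had 19.9, 20.1 and 18.4 FPKM in S87L spinal cord, against 16.0, 14.1 and 15.2 FPKM in wild-type spinal cord. All S87L libraries were higher, at 1.28-fold (log2 fold change 0.36, SE 0.06, adjusted p = 0.0101), and the call held with each of the 6 libraries left out. In MEF it averaged 44.7 ± 1.38 FPKM in S87L (SD, n = 2) and 47.0 ± 1.84 FPKM in wild-type (SD, n = 3), with overlap. Hspb8, the small heat shock protein that works with BAG3, had 41.1, 38.2 and 38.6 FPKM in S87L spinal cord, against 36.6, 33.5 and 35.1 FPKM in wild-type spinal cord. Its groups did not overlap either, yet it was not called (log2 fold change 0.16, SE 0.05, adjusted p = 0.0615). Beside them, the muscle actin gene Acta1 had 21.4, 21.1 and 19.2 FPKM in S87L spinal cord, against 4.85, 3.56 and 3.47 FPKM in wild-type spinal cord, and the part of muscle transcripts in the Bag3 and Hspb8 values was not tested.

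Both genes of this pair hold the letters of a heat shock element, the HSF1 binding pattern GAANNTTC, close after their start, which is why their windows are shown. The pattern, in capitals, was in 7.9% of all promoters and, among the 35 matched members, also in those of Fgd4 and Vcp. The windows are chr7:128523333-128523632, plus strand, for Bag3 and chr5:116422815-116423114, minus strand, for Hspb8.
Bag3: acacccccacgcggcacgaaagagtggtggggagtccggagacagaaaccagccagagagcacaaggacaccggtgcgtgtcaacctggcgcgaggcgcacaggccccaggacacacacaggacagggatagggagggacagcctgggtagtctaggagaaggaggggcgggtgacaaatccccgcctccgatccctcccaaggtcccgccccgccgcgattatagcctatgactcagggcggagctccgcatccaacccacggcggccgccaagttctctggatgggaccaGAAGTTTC
Hspb8: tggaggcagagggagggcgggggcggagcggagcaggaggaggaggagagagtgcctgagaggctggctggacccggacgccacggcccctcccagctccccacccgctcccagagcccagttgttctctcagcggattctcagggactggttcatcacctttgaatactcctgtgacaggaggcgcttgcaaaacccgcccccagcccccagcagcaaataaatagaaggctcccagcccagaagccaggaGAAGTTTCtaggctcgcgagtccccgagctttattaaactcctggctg
The match starts at base 43 in Bag3 and at base 3 in Hspb8, and its 8 letters are the same in both.

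Bscl2 (chromosome 19, 8837467 to 8848683) encodes seipin, which builds lipid droplets at the endoplasmic reticulum. It had 2.85 and 2.82 FPKM in S87L MEF, against 3.64, 3.66 and 4.04 FPKM in wild-type MEF. Both S87L libraries were lower, at 0.781-fold (log2 fold change -0.36, SE 0.07, adjusted p = 0.0260), although the adjusted p was 0.0635 to 0.0883 with any 1 library left out and 0.0653 with no filter on low values. In spinal cord it had 9.98, 9.38 and 9.40 FPKM in S87L, against 10.96, 10.3 and 10.9 FPKM in wild-type, lower in every S87L library and not called (log2 fold change -0.15, adjusted p = 0.0761). Of its exonic bases, 4.1% are shared on the same strand and 6.7% lie opposite another gene. Vcp, an ATPase that pulls ubiquitinated proteins out of complexes, averaged 63.9 ± 0.0927 FPKM in S87L and 67.8 ± 1.19 FPKM in wild-type spinal cord (SD, n = 3 each), and Lrsam1, a ubiquitin ligase, 10.4 FPKM in S87L and 11.2 FPKM in wild-type. The groups did not overlap for either in spinal cord, and neither was called (adjusted p = 0.108 and 0.179).

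The last 7 members act in the nucleus, in metabolism or at the cell surface. Sord (chromosome 2, 122234749 to 122265340), the sorbitol dehydrogenase whose loss is a frequent recessive cause of axonal neuropathy, had 12.1, 11.9 and 11.8 FPKM in S87L spinal cord, against 10.6, 10.7 and 10.4 FPKM in wild-type spinal cord. The libraries were tight within each group and the step was small (log2 fold change 0.17, SE 0.04, adjusted p = 0.0271), but the call was lost in 5 of 6 fits with 1 library left out (adjusted p up to 0.104), holding only without wild-type replicate 1. In MEF it had 8.84 and 11.2 FPKM in S87L, against 11.8, 12.01 and 12.3 FPKM in wild-type, and the S87L libraries differed from each other by more than the wild-type ones did. Lmna, of the nuclear lamina, averaged 7.80 FPKM in S87L and 8.31 FPKM in wild-type spinal cord, and 149 ± 8.05 FPKM in S87L (SD, n = 2) and 164 ± 5.46 FPKM in wild-type MEF (SD, n = 3). It was not called in either (adjusted p = 0.555 and 0.124). Ighmbp2, a helicase of motor neuron disease, averaged 2.02 FPKM in S87L and 2.24 FPKM in wild-type spinal cord, and Prps1, at the entry to nucleotide synthesis, 27.8 FPKM in S87L and 28.3 FPKM in wild-type. Over both tissues these 2 genes lay between -0.12 and 0.02 on the log2 scale. Mme, the membrane peptidase neprilysin, averaged 4.77 ± 0.638 FPKM in S87L (SD, n = 2) and 5.85 ± 0.161 FPKM in wild-type MEF (SD, n = 3), and was not called (log2 fold change -0.28, adjusted p = 0.0844). The cation channel Trpv4 averaged 0.737 FPKM in S87L and 1.01 FPKM in wild-type MEF, and the G protein subunit Gnb4 2.57 FPKM in S87L and 2.26 FPKM in wild-type MEF. Neither was called in either tissue.

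**Figure D3:**
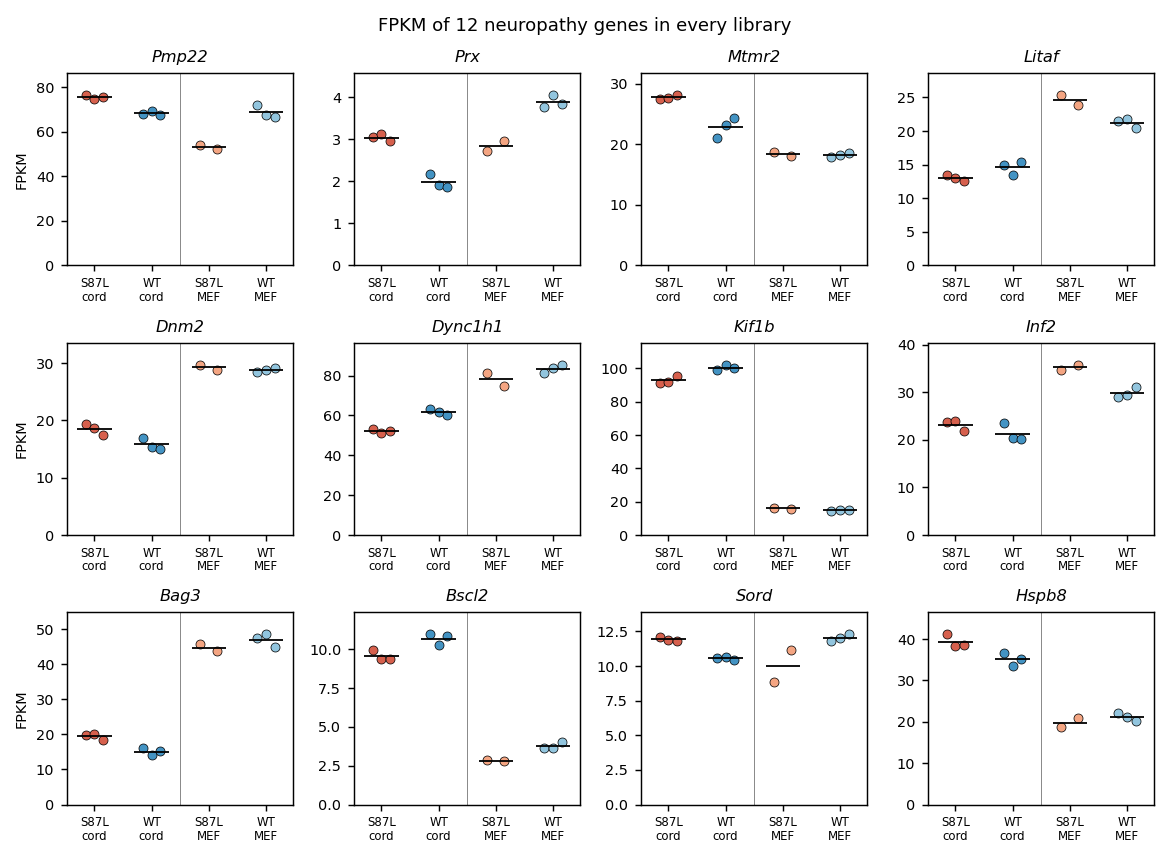
FPKM of 12 neuropathy genes in each of the 11 libraries (points) with the group mean (bar), each axis from 0; from left to right S87L and wild-type spinal cord, then S87L and wild-type MEF. Prx stood at 2.95 to 3.12 FPKM in S87L and 1.87 to 2.19 FPKM in wild-type spinal cord, and at 2.71 to 2.97 FPKM in S87L and 3.76 to 4.04 FPKM in wild-type MEF.

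Set side by side by form, the Schwann cell genes held 3 higher and 0 lower of 11 tested in spinal cord, against 2 higher and 1 lower of 22 axonal genes and 1 higher of 8 genes of both forms, where 5.17% of all genes were called higher and 7.71% lower. Their medians were -0.03, -0.07 and -0.02 on the log2 scale, against -0.02 for all genes. In MEF the Schwann cell genes held 1 higher and 2 lower of 11, the axonal genes 0 higher and 1 lower of 21 and the genes of both forms 1 higher of 6, where 4.91% of all genes were called higher and 6.32% lower. Their medians there were -0.01, -0.07 and -0.00, against -0.01 for all genes. Of the axonal genes, 18 of 22 in spinal cord and 16 of 21 in MEF had a negative value, where 55.3% and 53% of all genes did. The median size of the change, without its sign, was 0.140 for the Schwann cell genes and 0.0922 for the axonal genes in spinal cord, and 0.168 and 0.0935 in MEF, against 0.0996 and 0.114 for all genes. These figures describe lists and no test was made between them.

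**Figure D4:**
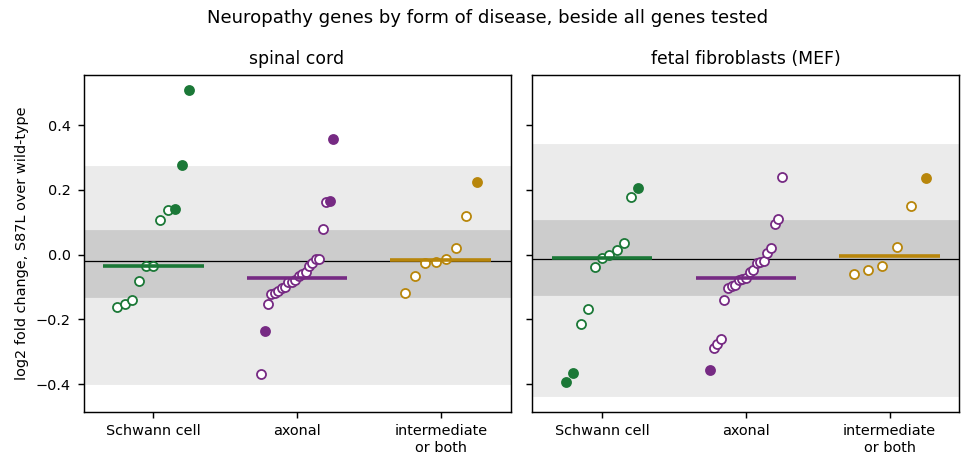
Log2 fold change, S87L over wild-type, of each tested neuropathy gene by form of disease in spinal cord and MEF; filled points passed the test, coloured bars are list medians, the black line is the median of all genes tested and the dark and light bands hold the middle 50% and 90% of all genes. Most members lie inside the light band, and list medians lie between -0.07 and -0.00.

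A further fit of all 11 libraries asked whether the genotype difference was of the same size in both sources, through the interaction term (genotype effect in MEF minus that in spinal cord). Of 42 members tested, 7 (16.7%) were called, where 13.1% of all genes were. Lower in the MEF effect were 5 members, where 6.98% of all genes were: Prx (-0.90, SE 0.09, adjusted p = 1.66e-04), Pmp22 (-0.51, SE 0.05, adjusted p = 2.10e-04), Bag3 (-0.43, SE 0.08, adjusted p = 0.00659), Sord (-0.43, SE 0.10, adjusted p = 0.0192) and Mtmr2 (-0.26, SE 0.07, adjusted p = 0.0384). Higher were 2, where 6.14% of all genes were: Litaf (0.37, SE 0.08, adjusted p = 0.0148) and Kif1b (0.22, SE 0.05, adjusted p = 0.0211). By form, 4 of the 7 were Schwann cell genes (of 12 tested) and 3 were axonal (of 22). The calls of Prx, Pmp22, Bag3 and Sord held with each of the 11 libraries left out. The Litaf call was lost without S87L MEF replicate 1 (adjusted p = 0.0639), the Kif1b call without that library or S87L spinal cord replicate 1 or 2 (up to 0.0758), and the Mtmr2 call in 9 of 11 such fits (up to 0.0977), with no filter on low values (0.0735) and with quantile normalization (0.0815).

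The levels of the members were also compared between the wild-type sources. Between wild-type spinal cord and wild-type MEF, 39 of 42 members (92.9%) differed, 21 higher and 18 lower in spinal cord, where 87.6% of all genes differed, 47.4% higher and 40.3% lower. The libraries of the 2 sources did not overlap at 39 members, against 88.5% of all genes. The highest in wild-type spinal cord were Nefl, Nefh, Rab7, Kif1b and Ndrg1, and the highest in wild-type MEF were Lmna, Gars, Vcp, Rab7 and Dync1h1. Some members were higher in spinal cord. Gdap1 averaged 20.5 ± 0.957 FPKM in wild-type spinal cord and 0.0555 ± 0.0263 FPKM in wild-type MEF (SD, n = 3 each). Kif1b averaged 100.4 FPKM in wild-type spinal cord and 14.8 FPKM in wild-type MEF, and Ndrg1 69.1 FPKM in wild-type spinal cord and 6.06 FPKM in wild-type MEF. Others were lower in spinal cord than in MEF. Lmna averaged 8.31 ± 0.834 FPKM in wild-type spinal cord and 164 ± 5.46 FPKM in wild-type MEF (SD, n = 3 each). Bag3 averaged 15.1 FPKM in wild-type spinal cord and 47.0 FPKM in wild-type MEF, Prx 1.99 FPKM in spinal cord and 3.89 FPKM in MEF, and Egr2 0.233 FPKM in spinal cord and 2.61 FPKM in MEF. Pmp22 was not called, at 68.2 ± 0.872 FPKM in wild-type spinal cord and 68.7 ± 2.88 FPKM in wild-type MEF (SD, n = 3 each, log2 difference -0.01, adjusted p = 0.835). Among Schwann cell genes 7 were higher and 4 lower in spinal cord, and among axonal genes 10 were higher and 11 lower. Quantile normalization moved the median of all genes by more than 0.1, to -0.15, against 0.12 as deposited, and under it Dhtkd1 was no longer called (log2 difference -0.32, against 0.42) and Gnb4 was called lower (-0.35).

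**Figure D5:**
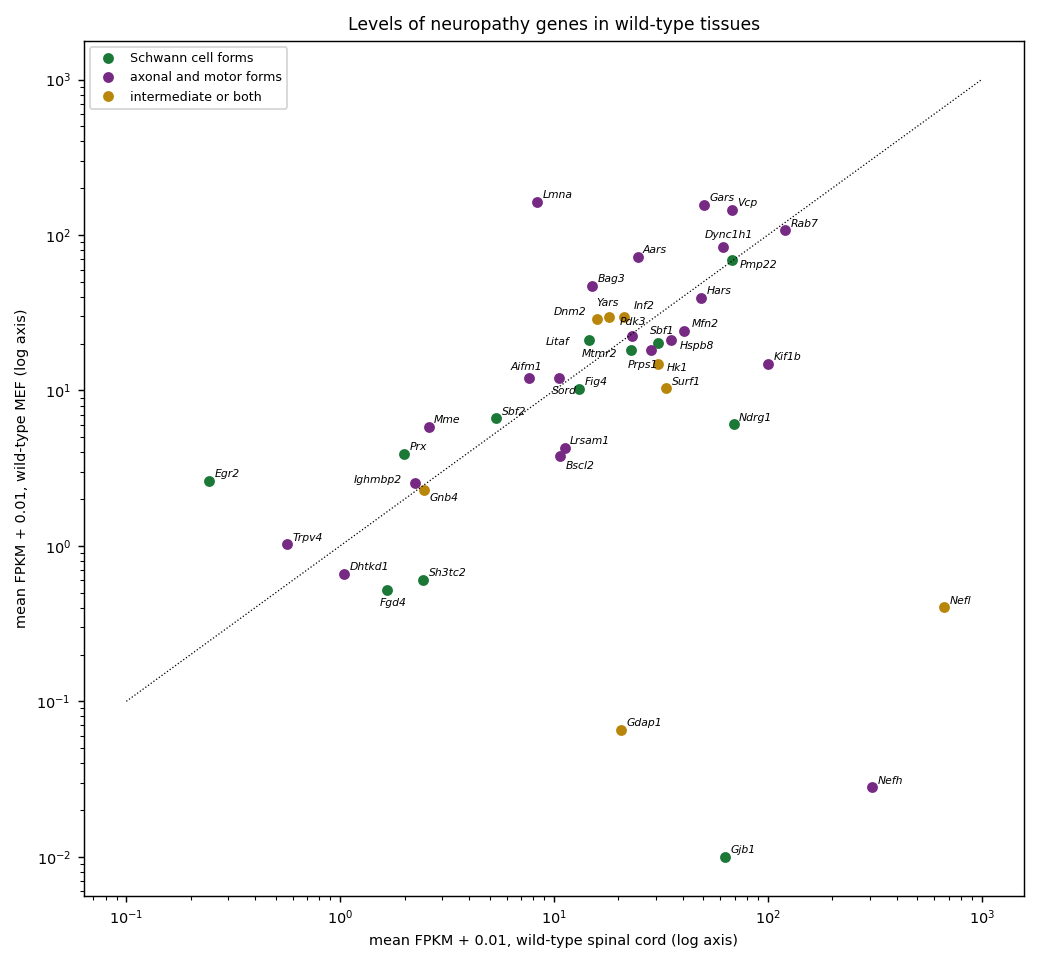
Mean FPKM plus 0.01 of each of the 42 neuropathy genes in wild-type spinal cord (horizontal) and wild-type MEF (vertical), both log axes, coloured by form of disease; the dotted line marks equal levels. Nefl, Nefh, Gdap1 and Gjb1 lie far below the line, Lmna and Egr2 far above it, and Pmp22 on it.

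Of 55 other genes of inherited neuropathy, the pattern was again mixed. In spinal cord 4 of 48 tested were higher in S87L and 2 lower, where 5.17% of all genes were called higher and 7.71% lower. Among those higher were Hspb1, a small heat shock protein, with 41.2, 37.2 and 31.8 FPKM in S87L spinal cord, against 29.1, 27.1 and 25.5 FPKM in wild-type spinal cord (log2 fold change 0.42, adjusted p = 0.0281), and Arhgef10, an exchange factor for small GTPases, at 0.17. Vrk1, a kinase of the nucleus, was lower, with 2.78, 2.76 and 3.00 FPKM in S87L spinal cord, against 3.57, 3.77 and 3.67 FPKM in wild-type spinal cord (log2 fold change -0.32, adjusted p = 0.0119). In MEF 2 of 43 were higher and 2 lower, where 4.91% of all genes were called higher and 6.32% lower. Among those higher was Retreg1, a receptor for autophagy of the endoplasmic reticulum, with 5.18 and 4.94 FPKM in S87L MEF, against 3.50, 3.58 and 3.38 FPKM in wild-type MEF (log2 fold change 0.48, adjusted p = 0.00633). Naglu, a lysosomal enzyme, and Dnmt1, the maintenance DNA methyltransferase, were lower (-0.28 and -0.19). For Retreg1 both S87L libraries were above all wild-type ones.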

How the data were processed

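The labels' protocols give TRIzol extraction of total RNA and the NEBNext Ultra II Directional library kit. The authors deposited FPKM values for 55487 Ensembl genes in 11 libraries. The build was GRCm38, per the submitters' processing notes, which name HISAT2 2.2.1, HTSeq 0.11.3, Trimmomatic 0.39 and Picard 2.25.5. The strand setting, the annotation release and each tool's role were not given in the sources used, so overlapping and antisense genes may share reads. Gene names and positions are those of GENCODE on GRCm38, which named 55141 of the identifiers. Within 0.05, values were whole reads for 98.51% to 98.6% per library, and for 40 of the 42 members (not Prx and Kif1b).

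The deposited FPKM values were tested as log2(FPKM + 0.5) with limma 3.58.1, trend and robust options on, under R 4.3.3. Fits took genes with a mean of at least 0.5 FPKM over their libraries, and p-values were adjusted by Benjamini-Hochberg over all genes tested: 15648 in spinal cord, 13773 in MEF, 15811 for the interaction and 15962 between wild-type sources. This scale understates the change of low genes. Fits were tested on simulated data. Library titles gave group and replicate number. Each member that was called is given with every library's value, and of other lists up to 4 called genes with the smallest p, apart from some genes that are not reported here. The members and lists, and their forms of disease, were chosen with earlier results of these data known. Alternatives were pseudocounts of 0.1 and 1, no filter, quantile normalization, a replicate block, each library left out and, for the axonal median, the 8 genes of both forms added. Start windows came from RefSeq on GRCm38.p6 and matched 35 members.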

Additional observations from a re-analysis of the deposited data

Results flagged for a closer look

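The genotype effect differed between MEF and spinal cord for 7 members, by the interaction term of the limma fit over 11 libraries. The difference, MEF minus spinal cord, was -0.90 for Prx, -0.51 for Pmp22, -0.43 for Bag3, -0.43 for Sord, -0.26 for Mtmr2, 0.22 for Kif1b and 0.37 for Litaf on the log2 scale. Only Pmp22 and Prx were called in both tissues, in opposite directions. Bag3, Sord and Mtmr2 were called in spinal cord alone and Litaf in MEF alone, while Kif1b was called in neither, with -0.11 in spinal cord and 0.11 in MEF. Marker genes moved the same way only in part. Of the fibroblast markers, 9 of 9 tested in spinal cord had a positive value. In MEF 6 of 9 had a negative value and 3 a positive one, where 53% of all genes were negative. Dcn differed by 1.22 in spinal cord and -0.92 in MEF, but Ogn by 1.14 and 0.02 and Fn1 by 0.50 and 0.11. Their part in these 7 differences was not tested.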

How the results depend on the processing

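Pseudocounts of 0.1 and 1 left every count of called members as it was. In MEF the count of 5 was 1, Pmp22, with no filter on low values, where Dnm2 in spinal cord was also lost. Replicate numbers did not pair the samples: same-numbered libraries deviated together with correlations of -0.05 to 0.15 in spinal cord, -0.07 and -0.03 in MEF and -0.03 to 0.02 between wild-type sources. With a replicate block, limma called 7 members in spinal cord (6 of them shared), 0 in MEF (7 at an unadjusted p under 0.05), 6 for the interaction and 38 between wild-type sources. The calls of Pmp22 in MEF (adjusted p = 0.0692), Sord in spinal cord (0.0517) and Mtmr2 in the interaction (0.0624) were among those lost with the block. With 1 library left out, the counts were 3 to 8 in spinal cord, 1 to 6 in MEF, 4 to 10 for the interaction and 37 to 39 between wild-type sources. The spinal cord count was 4 without wild-type replicate 3 and 3 without any 1 S87L library, keeping Prx, Dync1h1 and Bag3 each time. The MEF count was 1 without any 1 wild-type library, 2 without S87L replicate 1 and 6 without S87L replicate 2, and the interaction count was 4 without S87L MEF replicate 1. The fits without 1 S87L MEF library leave that arm with a single library, assumed to vary like the wild-type ones. The median of the Schwann cell forms in spinal cord was 0.0361 with no filter, against -0.03, and -0.0559 to 0.026 with 1 library left out. The median of the axonal forms in MEF was -0.0628 with no filter, -0.0603 with quantile normalization, -0.0612 with the block and -0.048 with the 8 genes of both forms added, and -0.0895 to -0.0606 with 1 library left out, against -0.07. Values near 0 that were not called changed sign: Mtmr2 in MEF was -0.00693 without S87L replicate 1 and up to 0.0354 without other libraries, and Pmp22 between wild-type sources was 0.00607 with quantile normalization and -0.0300 to 0.0254 with 1 library left out, the highest without MEF replicate 1. The cause of these shifts was not tested. Depth limits the low members: Egr2 in spinal cord, and Gjb1, Nefl, Nefh and Gdap1 in MEF, were below the filter.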

Other observations

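Motifs of factors tied to Schwann cells were looked for in the same start windows of 35 matched members, on both strands. Members are counted by any of their windows and the shares of all promoters by single windows. The EGR motif (GCGGGGGCG or GCGTGGGCG) was in 4 of them, Fgd4, Inf2, Hspb8 and Lrsam1, and in 3.5% of all promoters. The SOX motif ACAAAG was in 7, Gjb1, Litaf, Mtmr2, Fgd4, Vcp, Prps1 and Mme, and in 18.7% of all promoters. Of these members, Mtmr2 was called higher in S87L spinal cord, and Litaf and Inf2 in S87L MEF. These are matches of letters, with no measurement of binding in these data.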
